A study of Mus musculus with 17 samples.

Results

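The 10 genes described here are Myh6, Myl7, Myl4, Tnnt2, Tnni3, Actc1, Nppa, Sln, Ryr2 and Mybpc3, which encode proteins of the heart muscle cell. They were the rows of a table of estimated read counts of mouse lung whose gene symbol is on this list, 10 of 31245 genes, and all 10 were found once and passed the count filter (at least 20 counts in total, 26946 genes). Heart muscle cells contract when myosin thick filaments pull on actin thin filaments. Calcium released from the sarcoplasmic reticulum through the ryanodine receptor binds troponin and allows this pull, and calcium pumps then return it to the store. In mice, a sleeve of heart muscle runs from the left atrium along the pulmonary veins into the lung, so RNA of such cells can be present in whole lung. Heart tissue left attached to a lung can bring the same RNA, and which of these sources was present was not tested.

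The 17 libraries came from lungs of 17 mice of 3 genotypes. WT mice were Sv/129 animals of a commercial stock, while KO mice (PPARα null) and KI mice (with human in place of mouse PPARα) were bred from pairs without mouse PPARα that were heterozygous for human PPARα. Thus WT differed from the others in origin as well as in genotype. PPARα is a nuclear receptor for fatty acids. From 6 weeks of age all mice ate a diet modelled on that of American adults, and for 14 weeks they drank sucrose water without (vehicle) or with 6.2 µg/mL of PFOA, a perfluorinated acid. There were 2 WT vehicle libraries and 3 in each of the other groups. One further WT vehicle sample was not analysed here. The comparisons ask whether PFOA in the water changes lung RNA and whether PPARα alters this. Each library is named here by its group and mouse number, and values are always given in the same order. This order is 107 and 122 for WT vehicle, 50, 56 and 65 for WT PFOA, 137, 145 and 149 for KO vehicle, 52, 154 and 155 for KO PFOA, 102, 116 and 135 for KI vehicle, and 57, 80 and 139 for KI PFOA.

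Total counts ranged from 4116118 to 9237356 per library. Levels are given as CPM, counts scaled to library size with TMM factors, and 3 counts, taken here as the floor, equal 0.325 to 0.729 CPM without these factors. Protein-coding genes took 74.4% to 80.4% of the counts in 15 libraries, but 65.3% in WT vehicle 122 and 61.3% in KO vehicle 137. Therefore these 2 libraries were also left out together. Ppara, the targeted gene, was at 4.38 to 7.19 CPM in WT, at 8.82 to 11.7 CPM in the libraries labelled KO and at 9.08 to 20.4 CPM in those labelled KI. Ppara was not lower in the libraries labelled KO, so KO and KI stand for labels throughout. The counts are per gene and do not show which part of Ppara the reads came from, so they do not test whether the receptor was absent. All 6 KO libraries were from females, WT had 3 males among 5 libraries and KI had 2 among 6. A number in the authors' name for each library was taken here as its second sequencing index. What this number stands for is not given in the sources used here. Its value was the same in all 3 KO PFOA libraries, and this value was absent from KO vehicle. For KO, exposure therefore cannot be told apart from the index. Lung was checked by its own cells. Sftpc, the surfactant protein of alveolar type 2 cells, was at 677 to 3499 CPM, and Ager, of alveolar type 1 cells, was at 435 to 1275 CPM in the 17 libraries.

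Promoter sequences from RefSeq (build GRCm38.p6) covered 9 of the 10 members, in 10 promoters, since Tnnt2 has a pair of them and Sln has no entry. The 250 bases before the start are printed for 3 members, in lower case with motif matches in capitals. They are shown because these 3 held more than 1 motif each, and because Myl7 and Mybpc3 followed Myh6 closely across libraries whereas Nppa followed it least. Myl7 lies on the minus strand (chr11:5898783-5899032), Mybpc3 on the plus strand (chr2:91117894-91118143) and Nppa on the plus strand (chr4:148000472-148000721).
Myl7: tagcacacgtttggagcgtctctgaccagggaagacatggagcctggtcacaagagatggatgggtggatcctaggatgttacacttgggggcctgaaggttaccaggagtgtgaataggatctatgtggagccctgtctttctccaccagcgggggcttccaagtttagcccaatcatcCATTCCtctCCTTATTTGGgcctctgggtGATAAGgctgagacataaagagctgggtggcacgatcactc
Mybpc3: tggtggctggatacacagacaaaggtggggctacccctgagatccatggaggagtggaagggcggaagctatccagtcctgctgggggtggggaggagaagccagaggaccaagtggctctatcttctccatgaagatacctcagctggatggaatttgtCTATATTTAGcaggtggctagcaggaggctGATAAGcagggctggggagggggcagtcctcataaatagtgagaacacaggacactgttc
Nppa: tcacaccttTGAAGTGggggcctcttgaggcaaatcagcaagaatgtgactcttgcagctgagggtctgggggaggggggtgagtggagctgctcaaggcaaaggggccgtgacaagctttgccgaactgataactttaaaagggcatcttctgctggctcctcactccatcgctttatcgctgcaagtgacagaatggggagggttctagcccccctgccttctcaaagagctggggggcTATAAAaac
The TATA box was searched as TATAAA on the gene's strand only, and all other motifs on both strands. M-CAT, bound by TEAD factors, was searched as CATTCC, and GATA, bound by Gata4 among others, as GATAAG. For NKX2-5, the homeobox factor of the heart, the letters were TNAAGTG, and MEF2 and CArG, the site of serum response factor, were the remaining motifs. No matches overlapped one another in the promoters of the members. Counting back from the start with -1 as the last base before it, Myl7 held M-CAT at -70 to -65, CArG at -61 to -52 and GATA at -41 to -36. Mybpc3 held MEF2 at -90 to -81 and GATA at -60 to -55, and Nppa held NKX2-5 at -241 to -235 and the TATA box at -9 to -4. CArG was found in 2 of 9 members (Myl7 and Actc1) and in 1.47% of all 32851 promoters. M-CAT was found in 3 members (Myh6, Myl7 and Tnnt2) and 12.64% of all, GATA in 2 members and 6.55%, and MEF2 in 1 member and 0.51%. NKX2-5 was found in 1 member and 10.06% of all, and the TATA box in 1 member and 7.59%. Members were counted as genes, with a match in any of their promoters, whereas the share of all was counted over promoters. A match of letters is a description of the window and not a measured binding site.

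Gene positions are those of GENCODE M21 on build GRCm38 (mm10). Among the proteins of the thick filament, Myh6 (ENSMUSG00000040752, chromosome 14, 54941921 to 54966927, minus strand), the alpha myosin heavy chain of the heart, had by far the most counts of the 10 members, 49.1% to 76.2% of their sum in each library. Myh6 was at 588 and 275 CPM in WT vehicle and at 273, 431 and 3396 CPM in WT PFOA libraries. In KO, Myh6 was at 1485, 160.5 and 220.4 CPM on vehicle and at 1344, 222 and 1223 CPM on PFOA. In KI, Myh6 was at 5546, 1760.2 and 1618 CPM on vehicle and at 5076, 428 and 1775 CPM on PFOA. These values covered a 34.6-fold range, with KI vehicle 102, KI PFOA 57 and WT PFOA 65 highest and KO vehicle 145 lowest. In KI vehicle 102, Myh6 was at rank 9 among all genes by counts, while in KO vehicle 145 it was at rank 986. Within every genotype, the vehicle and PFOA libraries overlapped. The group means were 432 ± 222 CPM in WT vehicle (SD, n = 2), 1367 ± 1759 CPM in WT PFOA, 622 ± 748 CPM in KO vehicle and 930 ± 616 CPM in KO PFOA (SD, n = 3 each). In KI, the means were 2975 ± 2228 CPM on vehicle and 2427 ± 2392 CPM on PFOA (SD, n = 3 each). Neighbours in the order of these means lay within each other's SD. In bulk lung, fewer heart muscle cells and less RNA per cell cannot be told apart, and neither can muscle of the veins and attached heart tissue.

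Myl7 (ENSMUSG00000020469, chromosome 11, 5896637 to 5898782, minus strand), the regulatory myosin light chain of the atria, was far lower, with the same 3 libraries at the top. Myl7 was at 10.8 and 0.980 CPM in WT vehicle and at 4.69, 6.72 and 71.02 CPM in WT PFOA libraries. In KO, Myl7 was at 23.02, 2.39 and 3.14 CPM on vehicle and at 30.7, 3.72 and 21.97 CPM on PFOA. In KI, Myl7 was at 113, 35.6 and 25.6 CPM on vehicle and at 66.2, 7.58 and 29.6 CPM on PFOA. KI vehicle 102 was again highest and WT PFOA 65 second, but WT vehicle 122 was lowest, with only 6 counts. Myl4 (ENSMUSG00000061086, chromosome 11, 104550663 to 104595753, plus strand) is the essential myosin light chain of the atria. Myl4 was at 18.5 and 5.06 CPM in WT vehicle and at 10.4, 13.4 and 152 CPM in WT PFOA libraries. In KO, Myl4 was at 52.95, 5.91 and 7.15 CPM on vehicle and at 50.1, 7.87 and 42.6 CPM on PFOA. In KI, Myl4 was at 258, 65.4 and 49.7 CPM on vehicle and at 148, 12.3 and 62.99 CPM on PFOA. Its highest libraries were KI vehicle 102 and WT PFOA 65, its lowest was WT vehicle 122, and the range was 50.9-fold. Mybpc3 (ENSMUSG00000002100, chromosome 2, 91118144 to 91136516, plus strand), the cardiac myosin binding protein C, crosses the thick filament. Mybpc3 was at 4.13 and 3.27 CPM in WT vehicle and at 0.633, 2.78 and 32.6 CPM in WT PFOA libraries. In KO, Mybpc3 was at 16.3, 0.844 and 2.38 CPM on vehicle and at 8.77, 1.70 and 10.9 CPM on PFOA. In KI, Mybpc3 was at 86.2, 9.41 and 11.9 CPM on vehicle and at 47.1, 3.08 and 11.6 CPM on PFOA. The range of Mybpc3 was 136-fold, from 5 counts in WT PFOA 50 to 541 counts in KI vehicle 102.

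**Figure D1:**
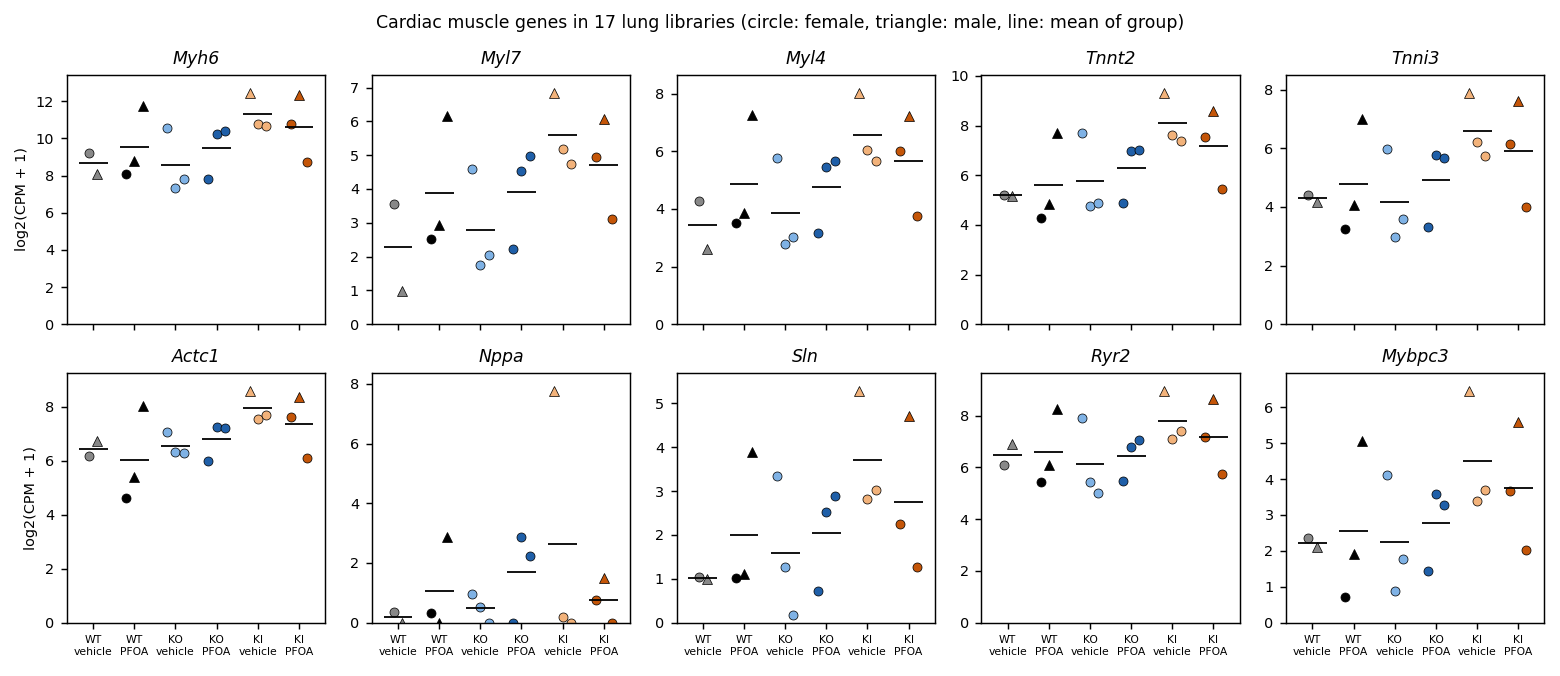
Level of each of the 10 members, as log2(CPM + 1), in the 6 groups of lung libraries. Circles are females, triangles are males and the line is the mean of a group. The males KI vehicle 102, KI PFOA 57 and WT PFOA 65 stand at the top of most panels, and the males WT vehicle 122 and WT PFOA 56 do not.

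Thin filament proteins followed. Actc1 (ENSMUSG00000068614, chromosome 2, 114047282 to 114053548, minus strand), the cardiac alpha actin, had the narrowest range of them, at 15.9-fold. Actc1 was at 70.8 and 104 CPM in WT vehicle and at 23.8, 41.2 and 263 CPM in WT PFOA libraries. In KO, Actc1 was at 132, 79.9 and 76.6 CPM on vehicle and at 147, 61.8 and 152 CPM on PFOA. In KI, Actc1 was at 379, 185 and 208 CPM on vehicle and at 327, 67.9 and 198 CPM on PFOA. The same 3 libraries were highest, while the lowest was WT PFOA 50 and no library was under 23.8 CPM. Tnnt2 (ENSMUSG00000026414, chromosome 1, 135836354 to 135852260, plus strand), cardiac troponin T, ties the troponin complex to tropomyosin. Tnnt2 was at 35.8 and 35.1 CPM in WT vehicle and at 18.4, 27.6 and 208 CPM in WT PFOA libraries. In KO, Tnnt2 was at 205, 25.9 and 28.7 CPM on vehicle and at 129, 28.7 and 124 CPM on PFOA. In KI, Tnnt2 was at 633, 198 and 163 CPM on vehicle and at 378, 43.02 and 186 CPM on PFOA. KI vehicle 102 and KI PFOA 57 were highest, and WT PFOA 65 (208 CPM) was close to KO vehicle 137 (205 CPM) and KI vehicle 116 (198 CPM). Tnni3 (ENSMUSG00000035458, chromosome 7, 4518305 to 4524229, minus strand), the inhibitory cardiac troponin I, was the member whose ratio to Myh6 varied least. Tnni3 was at 20.2 and 17.2 CPM in WT vehicle and at 8.49, 15.8 and 126 CPM in WT PFOA libraries. In KO, Tnni3 was at 62.4, 6.89 and 10.9 CPM on vehicle and at 49.5, 9.05 and 53.7 CPM on PFOA. In KI, Tnni3 was at 235, 72.8 and 51.9 CPM on vehicle and at 196, 14.9 and 69.4 CPM on PFOA. Its level was 3.11% to 6.25% of that of Myh6, a 2.01-fold range in a gene whose own level ranged 34.1-fold.

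Calcium handling was represented by Ryr2 and Sln. Ryr2 (ENSMUSG00000021313, chromosome 13, 11553102 to 12106945, minus strand) is the ryanodine receptor that releases calcium in the heart. Ryr2 was at 66.4 and 118 CPM in WT vehicle and at 41.9, 66.9 and 301 CPM in WT PFOA libraries. In KO, Ryr2 was at 237, 42.5 and 30.9 CPM on vehicle and at 132, 43.7 and 108 CPM on PFOA. In KI, Ryr2 was at 490.0, 134 and 168 CPM on vehicle and at 395, 52.3 and 143 CPM on PFOA. KI vehicle 102 was highest and KO vehicle 149 lowest, and WT vehicle 122 was above WT vehicle 107, opposite to their order for Myh6. Sln (ENSMUSG00000042045, chromosome 9, 53850164 to 53854560, plus strand), sarcolipin, inhibits the calcium pump and is made in atrial muscle. Sln was at 1.07 and 0.980 CPM in WT vehicle and at 1.01, 1.17 and 13.7 CPM in WT PFOA libraries. In KO, Sln was at 9.21, 1.41 and 0.126 CPM on vehicle and at 6.37, 0.638 and 4.78 CPM on PFOA. In KI, Sln was at 37.7, 6.11 and 7.17 CPM on vehicle and at 25.3, 1.41 and 3.77 CPM on PFOA. Sln was at 1 count in KO vehicle 149 and at 237 counts in KI vehicle 102. The ratio of these CPM values was 301-fold, but it rests on 1 count.

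Nppa (ENSMUSG00000041616, chromosome 4, 148000722 to 148002079, plus strand) encodes atrial natriuretic peptide, the hormone that atrial muscle cells store and secrete. Nppa was at 0.266 and 0 CPM in WT vehicle and at 0.253, 0 and 6.29 CPM in WT PFOA libraries. In KO, Nppa was at 0.921, 0.422 and 0 CPM on vehicle and at 3.72, 0 and 6.28 CPM on PFOA. In KI, Nppa was at 215, 0.127 and 0 CPM on vehicle and at 1.83, 0 and 0.698 CPM on PFOA. KI vehicle 102 was at 1349 counts, and the second library, WT PFOA 65, was at 49 counts and 34.1-fold lower in CPM. In 10 of the 17 libraries Nppa was at no more than 3 counts, and in 6 of these it was at 0. KI PFOA 57, with nearly as much Myh6 as KI vehicle 102, had 16 counts of Nppa. Nppa shares 532 exonic bases with Gm13054 on the opposite strand, which had 32 counts in all. How the counting used strand is not given in the sources used here, so reads of the pair cannot be told apart. Tnni3 also shares 86 bases with Dnaaf3, and Myh6 and Actc1 are near copies of Myh7 and Acta1, between which the authors' expectation-maximization counting could split reads.

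Taking all 10 members as 1 sum, their share of a library's counts went from 0.0340% in KO vehicle 145 (95% Wilson interval 0.0326% to 0.0354%) to 0.810% in KI vehicle 102 (0.803% to 0.817%). KI PFOA 57 was at 0.647% (0.641% to 0.652%) and WT PFOA 65 at 0.462% (0.457% to 0.466%). The other libraries lay from 0.0386% to 0.245%. These intervals cover counting error only, and they are far narrower than the spread between libraries of 1 group. KI vehicle 102 was the highest library for 10 of 10 members. WT PFOA 65 was among the 3 highest for 10 members and KI PFOA 57 for 9, since for Nppa it came after KO PFOA 155. When the libraries were put in order of Myh6, the widest step was from 588 CPM (WT vehicle 107) to 1223 CPM (KO PFOA 155), 2.08-fold, with 8 libraries below it and 9 above. Another step of 1.91-fold lay between 1775 CPM (KI PFOA 139) and 3396 CPM (WT PFOA 65). By sex, Myh6 was at 160.5 to 1775 CPM in 12 females (median 906 CPM) and at 275 to 5546 CPM in 5 males (median 3396 CPM). Over the 4 second indexes, with 5 libraries for one and 4 for each other, the medians were 1223, 956, 1992 and 919 CPM, and all 4 ranges overlapped. The part of sex and index in these levels was not tested.

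The members moved together across libraries. On log2(CPM + 1), all 45 pairs had a positive Pearson correlation over the 17 libraries, from 0.60 to 0.99 with a median of 0.93, and Spearman correlations from 0.58 to 0.99. All 45 passed a two-sided permutation test at p under 0.05 after Benjamini-Hochberg adjustment over the pairs, with the largest adjusted p at 0.00912 (Actc1 and Nppa) for Pearson. The members were chosen with earlier results of these libraries known, so this count is no independent support. Myl7 and Myl4, both atrial light chains, had the highest r at 0.99 (rho 0.99, permutation p = 1e-05 for both, the smallest that 100000 resamples can give), and 0.995 without WT vehicle 122 and KO vehicle 145, the 2 libraries farthest from the median of Myl7. Myh6 and Tnni3 had r = 0.99 and rho = 0.97 (permutation p = 1e-05 for both), and r = 0.99 without the 2 farthest libraries, KO vehicle 145 and 149. Without Nppa, the lowest r of the 36 pairs was 0.81, for Myl7 and Actc1. Nppa stood apart with r from 0.60 to 0.73, and without KI vehicle 102 and WT PFOA 65 its r with Ryr2 was 0.44. Taking deviations from the mean of each group, which removes all differences between groups, left 45 of 45 pairs past the threshold, with a median r of 0.93. Deviations from the means of each sex left 44 for Pearson and 36 for Spearman, and deviations from the means of the second index left 45. Within the 9 libraries above the widest step in Myh6, a split made after the values were seen, the r of the other 9 members with Myh6 was 0.58 to 0.99 (median 0.95), and within the 8 below it was -0.18 to 0.87 (median 0.48). The difference between these 2 sets of correlations was not tested. Actc1 reached 49.8% of Myh6 in KO vehicle 145 and was 6.44% of it in KI PFOA 57, while Ryr2 reached 42.8% in WT vehicle 122 and was as low as 7.62%.

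**Figure D2:**
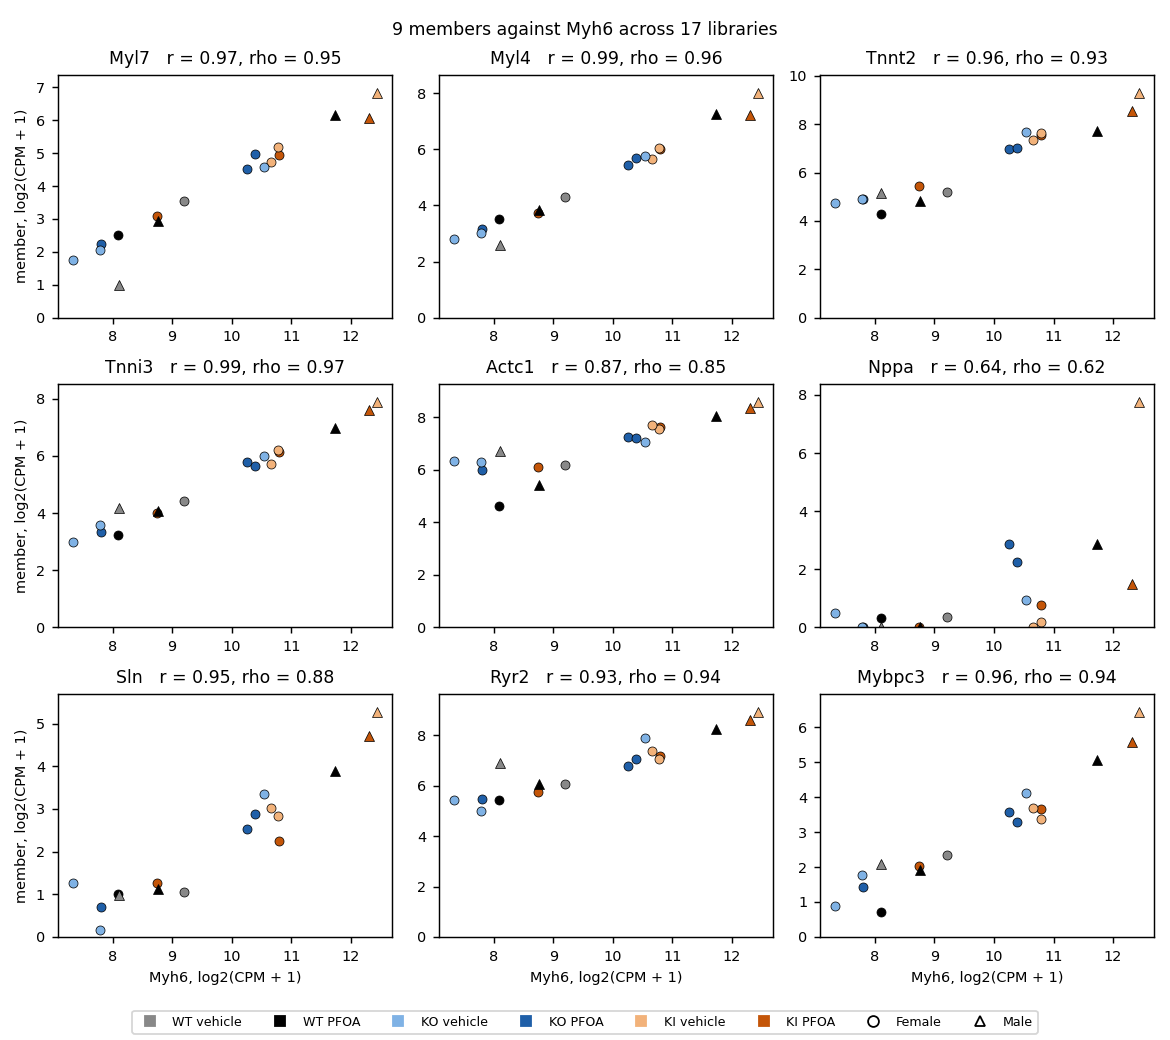
Level of 9 members against that of Myh6, both as log2(CPM + 1), with 1 point per library, coloured by group and shaped by sex. Tnni3, Myl4 and Myl7 lie close to a line, Actc1 and Ryr2 flatten at low Myh6, and Nppa is near 0 in most libraries with KI vehicle 102 alone at the top.

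Compared per length, as median CPM per exonic kilobase, Myh6 was highest at 182, followed by Actc1 (81.5), Myl7 (37.2), Tnni3 (24.0) and Tnnt2 (16.04). Myl4 was at 9.19, Ryr2 at 4.08, Sln at 2.86, Mybpc3 at 2.11 and Nppa at 0.308. Exonic length was taken over all annotated transcripts, so a gene with long rare transcripts is placed too low.

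Genes that differ between heart chambers were then examined. Myl2, the regulatory light chain of ventricular muscle, had 10 counts in all 17 libraries together, no more than 2 in any one, and was at 0 in 12, KI vehicle 102 and WT PFOA 65 among them. Myl3, the ventricular essential light chain that slow skeletal muscle also makes, was at 0 to 9.38 CPM, highest in WT PFOA 65, with a mean Spearman correlation with the members of 0.86. Myh7, the beta myosin heavy chain, was at 188 to 780 CPM, so its lowest library was well above 0 and its range of 4.16-fold was narrow beside that of Myh6. The mean Spearman correlation of Myh7 with the members was 0.79. Hey2, a transcription factor of ventricular muscle that vessels also use, was at 5.23 to 7.96 CPM with a mean rho of 0.14, and Irx4 was not analysed here. Of the atrial list, Mybphl, a myosin binding protein of atrial muscle, was at 0.281 to 26.3 CPM (mean rho 0.90) and Kcnj3, a potassium channel subunit of atrial muscle, at 0.251 to 26.4 CPM (0.87). KI vehicle 102 was the highest library for both. Kcna5 was at 0.254 to 3.50 CPM (0.41) and Gja5, a connexin of atria and arteries, at 19.4 to 38.3 CPM (-0.026). Bmp10, a growth factor of the right atrium, was at 0 in 10 libraries including KI vehicle 102, and its highest value, 2.30 CPM, was in KO vehicle 137.

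**Figure D3:**
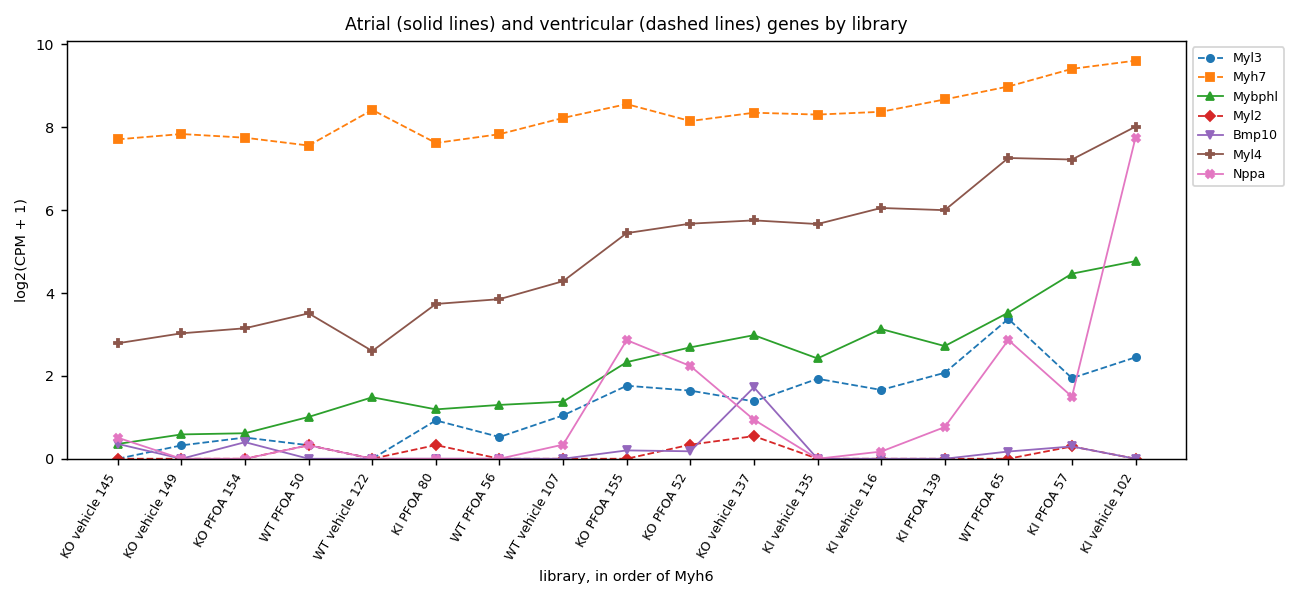
Atrial genes (solid lines) and ventricular genes (dashed lines), as log2(CPM + 1), with the 17 libraries in order of Myh6. Myl4 and Mybphl climb with Myh6, Myl2 and Bmp10 stay near 0, and Nppa is high only in KI vehicle 102 among these libraries. The ventricular genes Myl3 and Myh7 had a mean Spearman correlation with the members of 0.86 and 0.79.

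Many other genes of heart muscle followed the members. The likeness of a gene to the members was measured by the mean of its Spearman correlations with them over the 17 libraries, for genes with a mean of at least 1 CPM. Over all 19201 such genes the median was -0.029, and 2.01% were over 0.6. Among the 10 genes outside the members with the highest values were Ttn (0.91), Tnnc1, Ldb3, Mb, Mybphl, Ckmt2, Myo18b, Lmod2 and Atp2a2 (0.89), and 9 of the 10, all but Myo18b, were on the lists of cardiac genes. They include titin (Ttn, 219.8 to 5309 CPM), cardiac troponin C (Tnnc1, 0.844 to 51.9 CPM) and the Z-disc protein of Ldb3 (7.85 to 66.7 CPM). They also include myoglobin (Mb, 1.77 to 176 CPM), the mitochondrial creatine kinase Ckmt2 (0.380 to 62.1 CPM) and the calcium pump Atp2a2 (178 to 763 CPM). Myo18b was at 5.15 to 61.9 CPM and Lmod2, which lengthens thin filaments, at 1.06 to 54.2 CPM.

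Of 17 further sarcomere genes with a mean of at least 1 CPM, 16 were over 0.6, and beside Ttn, Tnnc1, Ldb3, Lmod2, Myl3 and Myh7 these included Actn2, Myom1, Myom2, Tcap, Csrp3, Myoz2, Cmya5, Xirp1 and Xirp2. Myom1 was at 34.0 to 143 CPM. Nebl, which cells other than muscle also make, was the exception, at 175 to 395 CPM with a mean rho of -0.26. In calcium handling and conduction, 9 of 13 genes were over 0.6, among them Pln, Atp2a2, Casq2, Trdn, Hrc, Jph2, Kcnj3 and Kcnj5. Cacna1c (106 to 164 CPM, -0.28) and Slc8a1 (67.8 to 137 CPM, 0.56) were not, and Jph2 was at 16.3 to 42.6 CPM (0.66). All 10 genes of muscle energy metabolism were over 0.6, from 0.67 for Cpt1b to 0.90 for Mb. They were Cox6a2, Cox7a1, Cox8b, Ckmt2, Ckm, Mb, Fabp3, Pgam2, Eno3 and Cpt1b, with Eno3 at 4.89 to 48.1 CPM and Ckm at 1.41 to 46.0 CPM. Of 7 cardiac transcription factors at this level, Gata4, Tbx20, Myocd and Smyd1 were over 0.6. Tbx20 was at 0.730 to 22.1 CPM (0.87) and Myocd at 6.43 to 23.5 CPM (0.67). Tbx5 (37.1 to 89.9 CPM, -0.28), Gata6 (28.9 to 45.9 CPM, -0.30) and Mef2c (34.5 to 88.8 CPM, 0.11), which lung cells also use, were not. Nkx2-5 and Hand2, with means under 1 CPM, were at 0.75 and 0.77.

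Lists of other cell types were compared in the same way. Of 13 skeletal muscle genes, 8 reached a mean of 1 CPM and 0 of these were over 0.6. Myh4 was highest in WT PFOA 56 at 30.5 CPM and Myh2 in KO vehicle 137 at 18.4 CPM, and the sum of the list was 3.65 to 63.3 CPM, highest in KO vehicle 137. Tnnt3 and Atp2a1, with up to 9.21 and 5.17 CPM, had mean rho of 0.42 and -0.044. Of 10 smooth muscle genes, 3 were over 0.6 (Synpo2, Myl9 and Des, at 0.60 to 0.65), and the summed list of 1171 to 3227 CPM was highest in WT vehicle 122. Myh11 was at 501.5 to 1506 CPM (0.596), Des at 147 to 413 CPM, Acta2 at 139 to 379 CPM (0.44) and Tagln at 97.0 to 219 CPM (0.39). Of 6 fat genes, 3 were over 0.6 (Adipoq, Plin1 and Cfd, at 0.69 to 0.78). The summed fat list went from 4.47 CPM in KI PFOA 139, a library with 1775 CPM of Myh6, to 107 CPM in KO PFOA 52, a library with 1344 CPM. Plin1, which coats fat droplets, was at 40.3 CPM in KI vehicle 102 and 17.1 CPM in WT PFOA 65 but at 0.279 CPM in KI PFOA 139. Ucp1, the uncoupling protein of brown fat, was at up to 29.3 CPM in WT PFOA 65, and Cidec at up to 19.6 CPM in KI vehicle 102. Of cartilage genes, Acan alone had a mean of 1 CPM (0 to 8.12 CPM, mean rho 0.64), and Col2a1 and Comp were at up to 4.83 and 1.15 CPM. Thymus genes (Rag1, Rag2, Dntt, Ptcra and Arpp21) and the oesophageal keratins Krt4 and Krt13 had means under 1 CPM, with sums of up to 16.3 and 3.22 CPM, both in KO vehicle 137.

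All 4 alveolar type 1, all 6 alveolar type 2 and all 4 endothelial genes had a mean rho under 0, from -0.46 for Abca3 to -0.075 for Kdr. Their summed levels were lowest in KO vehicle 137 (779.5 CPM, 3149.7 CPM and 715 CPM) and at most 2186, 9947 and 2146 CPM. Of the 4 airway genes 0 were over 0.6, with Scgb3a2 highest at 0.54, and their sum was 4714 to 24858 CPM, highest in WT vehicle 122. The 5 mesothelial genes were at -0.45 to 0.31, and their sum was 11.6 to 107 CPM, lowest in WT vehicle 122. The part of these cell types in the levels of the members was not tested.

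**Figure D4:**
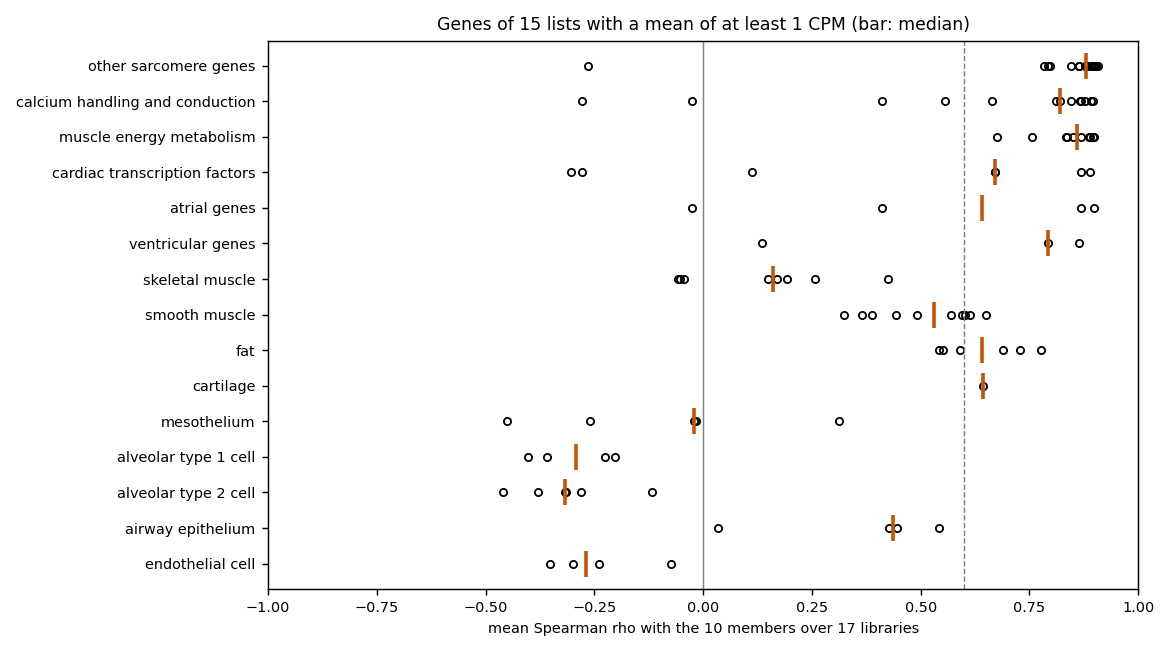
Mean Spearman correlation of each gene with the 10 members over 17 libraries, by list, for genes with a mean of at least 1 CPM. Bars are medians and the dashed line is at 0.6. Most genes of heart muscle lie to the right of it, while alveolar and endothelial genes lie below 0. The median was 0.64 for the fat list and 0.64 for the atrial list, 0.53 for smooth muscle and 0.16 for skeletal muscle.

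On PFOA, the members were not altered in any genotype. All comparisons were fitted with edgeR's quasi-likelihood test over 26946 genes in the 17 libraries, and altered genes were those with a fold change over 2 whose adjusted p was under 0.2. Whether mice of a group shared a litter or cage is not given in the sources used here. In WT, 0 of 10 members were altered, where the background was 0% of all genes, and 0 of 10 had an unadjusted p under 0.05, against a background of 7.34%. The log2 differences were positive for 10 of 10, with a median of 1.68 beside 0.037 for all genes. For Myh6 the log2 difference was 1.66 (standard error 1.15, adjusted p = 0.774, edgeR), and without WT PFOA 65 it was -0.29. Without that library, the median of the members was -0.46 and 1 of 10 was positive. With sex as a covariate the median was 0.54, with 0 of 10 at an unadjusted p under 0.05 (7.86% of all genes). With the second index as a covariate it was 2.47, and 8 of 10 had an unadjusted p under 0.05 (5.41% of all genes), while 0 of 10 were altered. Both WT vehicle libraries had the same second index, and among the WT PFOA libraries only WT PFOA 65 had it. Within an index, vehicle and PFOA in WT could thus be compared through that library alone. For 0 of 10 members did the WT PFOA and vehicle libraries stand apart without overlap, beside 22.5% of all genes.

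In KO, 0 of 10 members were altered on PFOA (background 0%), and 0 of 10 had an unadjusted p under 0.05 (background 9.79%). Their median log2 difference was 0.43 beside -0.033 for all genes, with 9 of 10 positive. Without KO vehicle 137, the one vehicle library of the 3 with much Myh6, the median was 2.18 and 10 of 10 were positive. With the second index as a covariate it was -0.81 and 0 of 10 were positive. Outside KO PFOA, the index of these libraries was held only by WT PFOA 56 and KI vehicle 102. The part of that index in the fit therefore came from other genotypes. For Myh6 the log2 difference was 0.58 (standard error 0.97, adjusted p = 0.848, edgeR). Libraries of 0 of 10 members stood apart, beside 12.8% of all genes.

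In KI, 0 of 10 members were altered on PFOA (background 0%). Nppa was the 1 member with an unadjusted p under 0.05, where the background was 2.59%. Its log2 difference was -6.32 (standard error 1.83, adjusted p = 1, edgeR), with the libraries at 215, 0.127 and 0 CPM on vehicle and 1.83, 0 and 0.698 CPM on PFOA, and without KI vehicle 102 it was 3.39. The median of the members was -0.71 beside 0.0048 for all genes, with 0 of 10 positive, and without KI vehicle 102 it was 0.45, with 10 of 10 positive. Fitted with the second index as a covariate it was -1.11, and 3 of 10 had an unadjusted p under 0.05 (2.78% of all genes). Myh6 was at -0.29 (standard error 0.97, adjusted p = 1, edgeR). Libraries of 0 of 10 members stood apart, beside 8.24% of all genes. Without KI PFOA 80 the median was -0.21. Thus the direction turned in WT and in KI when 1 male library with much Myh6 was left out, on PFOA in WT and on vehicle in KI. The fat list had medians of the same signs, with log2 differences that were 1.76 for WT, 3.11 for KO and -1.28 for KI, and 0 of its 6 genes were altered. The mesothelial list had these signs too, at 0.60, 0.46 and -0.19 in the same order, and the lists of other non-cardiac cell types did not. Skeletal muscle was at 1.28, -0.35 and 1.16, smooth muscle at -0.66, 0.070 and -0.14, airway at -1.20, -0.24 and -0.24, and cartilage at 2.59, -0.94 and -1.33. In WT, 6 of 10 smooth muscle and 4 of 4 airway genes had an unadjusted p under 0.05 (7.34% of all genes), and 0 genes of these lists were altered. The summed levels of both lists were highest in WT vehicle 122, 1 of the 2 WT vehicle libraries. The part of these cell types in the differences of the members was not tested.

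Over the 3 genotypes together, 0 of 10 members were altered (background 0%) and 0 of 10 had an unadjusted p under 0.05 (background 8.27%). The median was 0.19 beside -0.012 for all genes, with -0.31 without WT PFOA 65 and 0.89 without KI vehicle 102, and Myh6 was at 0.55 (standard error 0.61, adjusted p = 0.834, edgeR). The PFOA effect in KO did not differ from that in WT for any member past the threshold (0 of 10, background 0%), nor at an unadjusted p under 0.05 (0 of 10, background 7.44%), and the median of this difference was -1.08, or 1.02 without WT PFOA 65. It was -0.12 with sex as a covariate. When the second index was a covariate it was -2.95, and 6 of 10 had an unadjusted p under 0.05 (6.81% of all genes). For KI minus WT, this difference also passed the threshold for 0 of 10 (background 0%). Only Nppa had an unadjusted p under 0.05 for it (1 of 10, background 4.56%), with a log2 value of -10.11 (SE 3.61, adjusted p = 1, edgeR). Without KI vehicle 102, and likewise without WT PFOA 65, 0 of 10 did. The median was -2.22, and -0.96 and -0.04 without these libraries. With the second index as a covariate it was -3.58, and 10 of 10 had an unadjusted p under 0.05 (3.87% of all genes), with 0 altered. With sex as a covariate it was -1.17. In the fits with the second index, WT vehicle shared its index with only WT PFOA 65 among the WT PFOA libraries. KO PFOA shared its index with no KO vehicle library. With DESeq2, 0 of 10 members were altered in each of these 6 comparisons as well.

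Between genotypes, with exposure as an additive term, 0 of 10 members were altered in KO against WT, where 2.38% of all genes were, and 0 of 10 had an unadjusted p under 0.05 (background 12.9%). The median of the members was -0.20, and Myh6 was at -0.22 (standard error 0.73, adjusted p = 0.943, edgeR). The direction was not stable, since the median was 1.12 with sex as a covariate (1 member altered, Nppa, beside 1.59% of all genes), 1.07 with the second index as a covariate and 1.21 without WT PFOA 65. In KI against WT, 0 of 10 members were altered (background 1.36%), while 5 of 10 had an unadjusted p under 0.05 (background 9.65%). Those 5 were Tnnt2, Actc1, Tnni3, Sln and Myh6. All 10 members were higher in KI, with a median log2 difference of 1.65 beside 0.0076 for all genes. For Tnnt2 the difference was 2.08 (standard error 0.73, adjusted p = 0.262, edgeR), for Actc1 1.19 (standard error 0.48, adjusted p = 0.377, edgeR) and for Myh6 1.66 (standard error 0.78, adjusted p = 0.498, edgeR). Over the alternatives, the adjusted p of Tnnt2 went from 0.0260 to 0.485 and that of Myh6 from 0.0815 to 0.767 (edgeR and DESeq2).

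The count of altered members in KI against WT changed with sex as a covariate and with single libraries. Among females, Myh6 was at 1760.2, 1618, 428 and 1775 CPM in 4 KI libraries and at 588 and 273 CPM in 2 WT libraries. Among males, it was at 5546 and 5076 CPM in 2 KI libraries and at 275, 431 and 3396 CPM in 3 WT libraries. With sex as a covariate, 6 of 10 members were altered in KI (Tnnt2, Tnni3, Actc1, Nppa, Sln and Mybpc3), beside 1.54% of all genes in that fit. With the second index as a covariate 3 were (Tnnt2, Tnni3 and Actc1), beside 1.19%. Without WT PFOA 65, 8 of 10 were altered, all but Nppa and Ryr2, beside 1.76%, and the median was 3.01. Without KO vehicle 137 (2.12% of all genes) or without KI PFOA 80 (1.36%), 1 was altered, Tnnt2 both times. Without KI vehicle 102 (1.07% of all genes), 0 were altered, the median was 1.02 and Nppa was at -1.28. Among the other genes of heart muscle, Pln encodes phospholamban, which restrains the calcium pump. In the fit of all libraries without a covariate, Pln was altered at 1.15 (standard error 0.32, adjusted p = 0.105, edgeR). It was 1 of 14 genes of its list, beside 1.36% of all genes. None of 17 sarcomere genes, 10 energy genes, 10 transcription factors, 6 atrial genes and 3 ventricular genes passed. At an unadjusted p under 0.05 there were 8, 7, 7, 1 and 0 of them, and 2 of 14 genes of calcium handling (9.65% of all genes). Higher in KI were 16 of 17 sarcomere genes, 10 of 10 energy genes and 8 of 10 transcription factors. So were 6 of 6 atrial genes, 3 of 3 ventricular genes and 14 of 14 genes of calcium handling. The medians were 1.39 for sarcomere genes, 0.93 for calcium handling and 1.68 for energy metabolism, and 1.05 for the fat list, of which 0 of 6 genes were altered. In the PFOA comparisons and in KO against WT, 0 genes of these lists were altered with edgeR. Because KO and KI mice were bred apart from the WT stock, genotype and origin cannot be told apart.

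**Figure D5:**
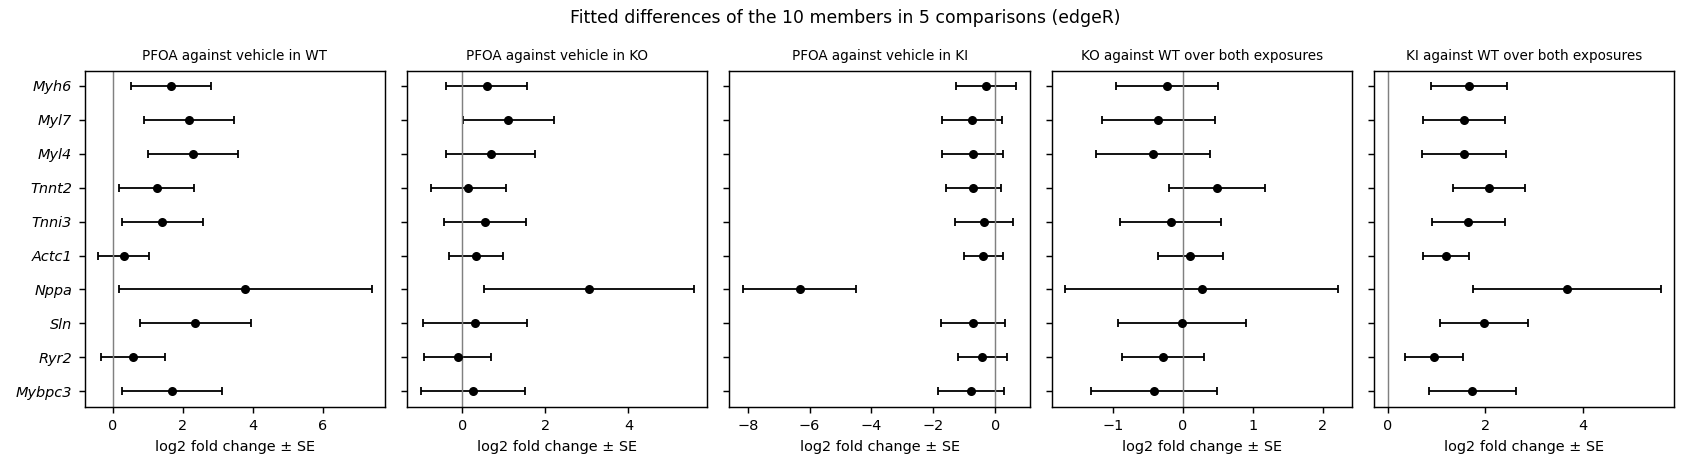
Fitted log2 differences of the 10 members in 5 comparisons (edgeR). Bars are 1 approximate standard error, the size of the log2 difference divided by the square root of the F statistic. In WT all points lie above 0, in KI all lie below 0 on PFOA, and in KI against WT all lie above 0, and no member was altered in these fits.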

How the data were processed

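RNA was extracted from lung, and libraries were sequenced. Per the labels and the study's methods, the authors trimmed reads at the 3′ end, aligned them to mm10 with STAR 2.6 and quantified genes by expectation-maximization in Partek, and deposited estimated counts without normalization, of which 29.9% were not whole. The annotation release and the use of strand are not given in the sources used here. The 10 members and all gene lists were chosen with earlier results of these data known. Counts were rounded, genes with fewer than 20 in total left out, and 26946 genes fitted with edgeR 4.0.16 (R 4.3.3; TMM factors, quasi-likelihood test, Benjamini-Hochberg adjustment over all genes). DESeq2 1.42.0 was an alternative, beside covariates for sex and second index, other filters and factors, and each library left out. Standard errors beside edgeR values are approximate, the size of the log2 difference divided by the square root of the F statistic. Pairs were tested on log2(CPM + 1) by 100000 permutations (two-sided). Alternatives chosen after seeing the data were the split at the widest step in Myh6 and the values of members in KI against WT. Named genes were all members, up to 4 genes of each list with the highest mean CPM, genes of the cardiac lists with a mean rho over 0.6 and the 10 other genes with the highest mean rho. Others named (such as Bmp10, Synpo2, Myl9 and Adipoq) were picked with their values in view. Some listed genes are counted but not reported here by name. The fits were tested on simulated data. Total counts were 4116118 to 9237356 per library, which limits precision below about 3 counts.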

Additional observations from a re-analysis of the deposited data

How the results depend on the processing

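By Pearson, 45 of 45 pairs of members passed in each alternative run except deviations from the means of each sex, which gave 44. By Spearman, that alternative gave 36 and leaving out KI vehicle 102 gave 44, and the others gave 45. Counts of altered members were 0 in the exposure comparisons and their differences in every alternative and with each library left out. In KO against WT, 1 member (Nppa) was altered with sex as a covariate. In KI against WT, the count was 6 with sex and 3 with the second index as a covariate, and 0 to 8 when each library was left out (8 without WT PFOA 65). Among all genes, DESeq2 gave 24 altered genes on PFOA in WT, 68 in KO, 1 in KI and 26 over the genotypes, and 3 and 1 for the differences of the KO and KI effects from that in WT, where edgeR gave 0. The second index as a covariate gave 1 in WT, 2 in KO and 1 for the KO difference. An adjusted p under 0.05 without a fold limit gave 1 over the genotypes, and leaving out WT vehicle 122 and KO vehicle 137 together gave 1 in KO. With each library left out, the counts of genes were 0 to 1671 in WT, 0 to 8 in KO, 0 to 5 in KI and 0 to 35 over the genotypes. They were 0 to 178 and 0 to 348 for the KO and KI differences. The values of 1671, 178 and 348 were reached without WT vehicle 107, when WT vehicle 122 alone stands for its group and is assumed to vary like the other groups. The adjusted p of each member on PFOA stayed above 0.2 in all of these fits.

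The direction of many log2 differences, none of them past the threshold, rested on 1 library. Leaving out each in turn gave, on PFOA in WT, -0.29 to 2.32 for Myh6, -0.0989 to 4.79 for Myl7, -0.0116 to 3.53 for Myl4, -0.63 to 1.74 for Tnnt2, -0.63 to 1.92 for Tnni3, -1.43 to 0.80 for Actc1, -0.0988 to 7.03 for Nppa, -0.76 to 1.04 for Ryr2 and -1.16 to 2.26 for Mybpc3, with the lowest value always without WT PFOA 65. In KO it gave -0.31 to 1.78 for Tnnt2, -0.37 to 2.35 for Sln, -0.56 to 1.36 for Ryr2 and -0.33 to 2.07 for Mybpc3. In KI it gave -1.43 to 0.52 for Myh6, -1.65 to 0.18 for Myl7, -1.72 to 0.38 for Myl4, -1.53 to 0.17 for Tnnt2, -1.51 to 0.58 for Tnni3, -0.96 to 0.0273 for Actc1, -7.66 to 3.39 for Nppa, -2.71 to 0.63 for Sln, -1.43 to 0.39 for Ryr2 and -2.29 to 0.96 for Mybpc3, the highest without KI vehicle 102 for all but Actc1 (without KI PFOA 80). Over the genotypes it gave -0.0670 to 1.01 for Myl4, -0.37 to 0.58 for Tnnt2, -0.0925 to 0.81 for Tnni3, -0.36 to 0.23 for Actc1, -2.69 to 3.30 for Nppa, -0.25 to 0.90 for Sln, -0.39 to 0.39 for Ryr2 and -0.48 to 0.91 for Mybpc3, and in KI against WT -1.28 to 7.21 for Nppa. With the second index as a covariate, the direction in KO turned, to -0.40 for Myh6, -0.0403 for Myl7, -0.57 for Myl4, -0.89 for Tnnt2, -0.73 for Tnni3, -0.22 for Actc1, -5.0036 for Nppa, -1.46 for Sln and -1.96 for Mybpc3, and over the genotypes to -0.20 for Tnnt2, -0.0337 for Tnni3, -0.24 for Actc1, -0.48 for Sln and -0.50 for Mybpc3. For KO, the fit with the second index took the part of the PFOA libraries' index from other genotypes, since no KO vehicle library had it. With sex as a covariate the direction turned to -0.21 for Actc1 in WT and, over the genotypes, to -0.10 for Tnnt2, -0.11 for Actc1, 0.24 for Nppa, -0.0522 for Sln and -0.11 for Mybpc3. Without WT vehicle 122 and KO vehicle 137, Ryr2 turned to 1.37 in KO and 0.45 over the genotypes, and with DESeq2 Nppa turned to 1.24 over the genotypes. The causes were not tested. No paired analysis was possible because the groups share no replicate numbers, which are the numbers of single mice.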

Other observations

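Of the genes averaging 1 CPM or more, the mean Spearman correlation with the 10 members was lowest for Dock1 (-0.77, 162 to 244 CPM). For Nkx2-1, a transcription factor of lung epithelium, it was -0.75, at 87.4 to 136 CPM. These values are a description over 17 libraries, and the genes were chosen by their values.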
